A study of Mus musculus with 9 samples.

Results

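Activity-induced early genes are transcribed within minutes of a stimulus, and 10 of them were examined here among the 36172 features of the count table, each found by its NCBI gene ID. They are Npas4, Arc, Nr4a1, Nr4a2, Nr4a3, Homer1 and Nptx2, all of them studied in stimulated neurons, and Ier2, Btg2 and Apold1. Ier2 and Btg2 are early genes of many cell types, while Apold1 is best known as an early gene of blood vessel endothelium. All 10 passed the filter on low counts. RNA was sequenced from the medial prefrontal cortex of DBA2/J mice, an inbred strain, in 3 groups of 3 libraries. The SA:ANH-KDM5Ci group had gone through 5 days of social defeat, in which a mouse is exposed to an aggressor, was of the type that the labels call SA:ANH, and received an inhibitor of KDM5C, a histone demethylase, of which no name, dose or timing is given. The SA:ANH-vehicle group had the same stress and type and received vehicle, which the treatment labels give as saline. The NS group was not stressed and received saline. Age, sex, what SA:ANH stands for and how long after the last stress or dose the tissue was taken are not given in the sources used here. Whether the 3 libraries of a group stem from 3 different mice is not stated, so the p-values reflect only the spread among libraries, which may be technical.

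In neurons, calcium entry through receptors and channels activates kinases that switch on the factors CREB, SRF and MEF2, which are already in place, and these start the early genes without new protein. The first products include transcription factors (Npas4 and the Nr4a nuclear receptors) and proteins that act at the synapse (Arc, Homer1 and Nptx2), and their RNAs are short-lived. In endothelium, cytokines, hypoxia and shear stress induce an overlapping but distinct early set to which Apold1 belongs. In bulk tissue, fewer cells of a type and less RNA per cell cannot be told apart.

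Total counts were 30525714 to 40700115 in SA:ANH-KDM5Ci, 33733470 to 42196472 in SA:ANH-vehicle and 29845097 to 36033714 in NS libraries. Excitatory neuron markers summed to 7481 to 7607, 7331 to 7678 and 7687 to 7969 CPM (counts relative to the library total, as edgeR gives them with TMM scaling) in SA:ANH-KDM5Ci, SA:ANH-vehicle and NS libraries. Among the 15144 genes tested, 135 rose (0.891%) and 245 fell (1.62%) in SA:ANH-KDM5Ci against SA:ANH-vehicle libraries at an adjusted p under 0.05. In SA:ANH-vehicle against NS these numbers were 2 (0.0132%) and 0 (0%), with 1244 genes at an unadjusted p under 0.05 and 81 calls by DESeq2. In SA:ANH-KDM5Ci against NS they were 281 (1.86%) and 320 (2.11%).

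SA:ANH-vehicle replicate 1 and NS replicate 1 stood apart from the other libraries in the early genes. For 5 of the 10 members, Npas4, Arc, Nr4a1, Ier2 and Btg2, those libraries were the highest pair of all 9, which was so for 3.33% of all tested genes. Fos, the classical early transcription factor, was at 14.3, 18.5 and 12.6 CPM in SA:ANH-KDM5Ci libraries, at 29.7, 10.8 and 15.1 CPM in SA:ANH-vehicle libraries and at 45.7, 8.19 and 8.43 CPM in NS libraries. The same libraries were also high in oligodendrocyte markers: SA:ANH-vehicle replicate 1 summed to 3045 CPM over the 7 markers and NS replicate 1 to 3030 CPM, while the other libraries of those groups lay between 1490 and 1946 CPM. SA:ANH-KDM5Ci libraries lay at 3562, 2724 and 3240 CPM. Results that rest on the pair are given with them and, there or in a later section, without 1 or both of them.

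Neuronal early gene promoters are known for sites of CREB, and stretches before the starts of members are shown as a description. RefSeq start sites on GRCm38.p6, the assembly that mm10 names, were at hand for Npas4, Nr4a1, Nr4a2, Nr4a3, Homer1 (with 2 starts), Btg2 and Apold1, but not for Arc, Nptx2 and Ier2. The 250 bases before each start were searched on both strands. The letters TGACG, the core of a CREB site, stood in 7 of these 8 stretches, as against 17.8% of 32851 RefSeq promoter stretches of the same length. They stood before Nr4a2, Nr4a3, Apold1 and the first start of Homer1 as well as before Npas4, Nr4a1 and Btg2. The part of these letters in the levels was not tested. The full palindrome TGACGTCA, which holds TGACG on both strands, stood in 1, that of Btg2, as against 1.55%. None of the 8 held a CArG box (1.47% of all), the letters AAAGGTCA of an Nr4a site (1.34%), CACGTG (6.02%) or the glucocorticoid response element palindrome (0.00913%). A match is a description of letters and not a bound site, and the G and C content of the 8 stretches ran from 46.8% to 80.0%. Capitals mark TGACG or its reverse complement in the following stretches, written from 5′ to 3′ on the strand of the gene.
Btg2, chr1:134079156-134079405, minus strand: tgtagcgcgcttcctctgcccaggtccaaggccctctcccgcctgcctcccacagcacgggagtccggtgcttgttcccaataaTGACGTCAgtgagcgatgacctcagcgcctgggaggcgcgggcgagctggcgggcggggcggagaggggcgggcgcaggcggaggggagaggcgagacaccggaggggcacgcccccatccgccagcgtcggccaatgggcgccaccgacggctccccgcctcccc
Nr4a1, chr15:101266596-101266845, plus strand: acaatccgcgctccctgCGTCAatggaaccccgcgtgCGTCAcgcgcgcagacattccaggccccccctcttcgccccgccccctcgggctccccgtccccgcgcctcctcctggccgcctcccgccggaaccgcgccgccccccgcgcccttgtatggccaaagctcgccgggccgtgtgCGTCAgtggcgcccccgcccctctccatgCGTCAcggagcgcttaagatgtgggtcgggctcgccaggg
Homer1, first start, chr13:93303507-93303756, plus strand: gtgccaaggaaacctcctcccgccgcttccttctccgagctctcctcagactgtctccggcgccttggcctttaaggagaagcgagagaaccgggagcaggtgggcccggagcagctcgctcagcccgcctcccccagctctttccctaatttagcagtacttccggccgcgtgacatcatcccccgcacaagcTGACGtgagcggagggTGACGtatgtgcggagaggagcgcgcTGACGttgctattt
Npas4, chr19:4990128-4990157, minus strand, 30 bases: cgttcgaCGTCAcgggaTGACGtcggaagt
Apold1, chr6:134981937-134981966, plus strand, 30 bases: ctttcccagagcCGTCAttggctcctggga
Btg2 carried the palindrome at bases -166 to -159 from its start. Homer1 carried 3 copies of TGACG in the last 56 bases and Nr4a1 carried 4 copies, in the reverse orientation, while the second Homer1 start had none. Npas4 and Apold1 are shown only around their matches because their 250-base stretches overlap an exon in GENCODE M21. The stretch of Nr4a3, which is counted but not shown, overlaps an exon too.

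Both SA:ANH groups were stressed, and they differ by label in the inhibitor. Of the 10 members, 1 was called, beside 0.891% of all tested genes called higher and 1.62% called lower. Apold1 rose 2.87-fold, while the other 9 did not pass the test. Apold1 (NCBI gene 381823, chromosome 6, 134982001 to 134986836) encodes an endothelial protein whose RNA is rapidly induced by cytokines and hypoxia. It was at 13.7, 15.9 and 15.96 CPM in SA:ANH-KDM5Ci libraries, against 6.14, 4.59 and 5.12 CPM in SA:ANH-vehicle libraries. Every SA:ANH-KDM5Ci library was above every SA:ANH-vehicle library, a separation in either direction seen for 18.9% of all tested genes. The means were 15.2 ± 1.28 and 5.28 ± 0.788 CPM (SD, n = 3 each). The fitted log2 fold change was 1.52 (SE 0.15, 95% interval from 1.20 to 1.84, Benjamini-Hochberg adjusted p = 0.000122 in the quasi-likelihood test of edgeR).

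**Figure D1:**
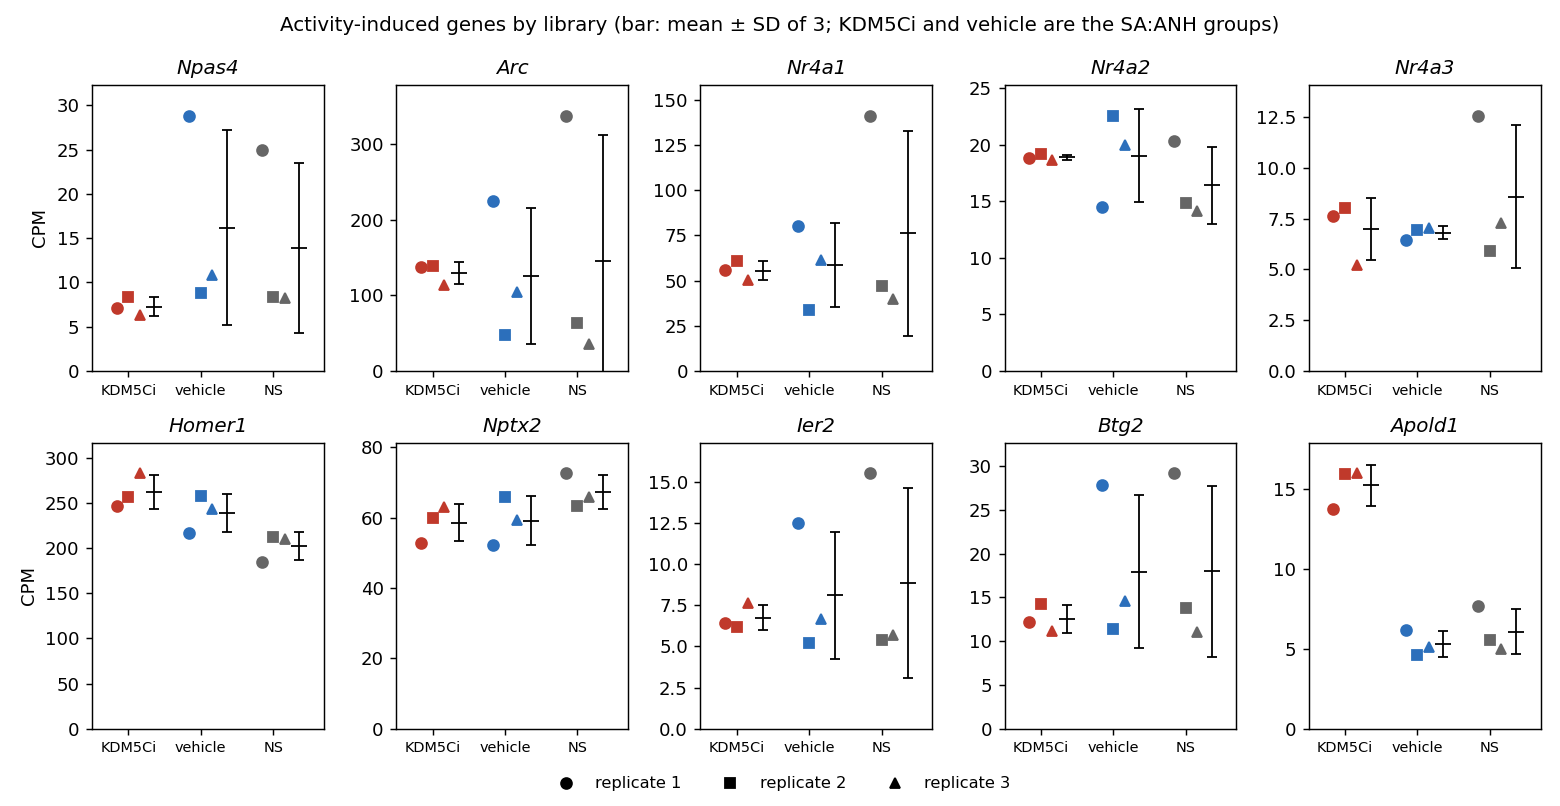
CPM of the 10 genes in each library (points, shaped by replicate), with the mean and SD of 3 libraries beside them (for Arc in NS the SD reaches below 0 and is clipped). Apold1 lies between 13.7 and 15.96 CPM in SA:ANH-KDM5Ci and below 8 CPM elsewhere, while Npas4, Arc, Nr4a1, Ier2 and Btg2 are highest in replicate 1 of SA:ANH-vehicle and of NS.

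Among the transcription factors, Npas4 (gene 225872, chromosome 19, 4984353 to 5003439) encodes a neuron-specific factor that responds to calcium and shapes inhibitory synapses. It was at 7.15, 8.37 and 6.30 CPM in SA:ANH-KDM5Ci libraries, against 28.8, 8.82 and 10.9 CPM in SA:ANH-vehicle libraries. The groups did not overlap, but the highest SA:ANH-KDM5Ci library and the lowest SA:ANH-vehicle library lay close together, and most of the difference in means came with SA:ANH-vehicle replicate 1. The log2 fold change was -1.17 (95% interval from -2.75 to 0.41, adjusted p = 0.518), and without that library it was -0.44 (adjusted p = 0.837).

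The Nr4a genes encode orphan nuclear receptors that act as early transcription factors without a classical ligand. Nr4a1, also known as Nur77 (gene 15370, chromosome 15, 101253902 to 101274795), was at 55.7, 60.6 and 50.3 CPM in SA:ANH-KDM5Ci libraries, against 80.1, 33.9 and 61.4 CPM in SA:ANH-vehicle libraries. The SA:ANH-vehicle libraries spread on both sides of the SA:ANH-KDM5Ci libraries, and the log2 fold change of -0.08 (adjusted p = 0.972) turned to 0.22 without SA:ANH-vehicle replicate 1. Nr4a2, or Nurr1, which dopamine neurons need (gene 18227, chromosome 2, 57106830 to 57124003), was at 18.8, 19.1 and 18.7 CPM in SA:ANH-KDM5Ci libraries, against 14.5, 22.6 and 20.0 CPM in SA:ANH-vehicle libraries. Replicate 1 was here the lowest SA:ANH-vehicle library, not the highest, and the log2 fold change was -0.01 (95% interval from -0.38 to 0.37, adjusted p = 0.992). Nr4a3, or Nor1 (gene 18124, chromosome 4, 48045078 to 48086447), was at 7.65, 8.05 and 5.23 CPM in SA:ANH-KDM5Ci libraries, against 6.45, 6.94 and 7.03 CPM in SA:ANH-vehicle libraries. The groups overlapped, with a log2 fold change of 0.03 (95% interval from -0.58 to 0.64, adjusted p = 0.978). The directions of these 3 fold changes flipped under some alternative fits.

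Among the proteins of the synapse, Arc (gene 11838, chromosome 15, 74669081 to 74672570) promotes the uptake of AMPA receptors from the membrane and forms capsids that carry RNA. It was at 137.3, 138.4 and 113.3 CPM in SA:ANH-KDM5Ci libraries, against 224.0, 47.7 and 104.4 CPM in SA:ANH-vehicle libraries. All SA:ANH-KDM5Ci libraries lay between the highest and the next SA:ANH-vehicle library. The log2 fold change was 0.04 with a 95% interval from -2.22 to 2.31 (adjusted p = 0.990), and it turned to -0.34 without SA:ANH-vehicle replicate 2 and to 0.77 without replicate 1. Homer1 (gene 26556, chromosome 13, 93303757 to 93405129) encodes a scaffold that ties metabotropic glutamate receptors to calcium stores, and activity induces a short form, Homer1a, that loosens this tie. Gene-level counts add the short and long forms. It was at 247.3, 257.0 and 283.4 CPM in SA:ANH-KDM5Ci libraries, against 216.8, 258.1 and 244.1 CPM in SA:ANH-vehicle libraries, with a log2 fold change of 0.13 (95% interval from -0.03 to 0.29, adjusted p = 0.482). Nptx2, a secreted pentraxin that gathers AMPA receptors on interneurons (gene 53324, chromosome 5, 144545887 to 144557478), was at 52.9, 59.9 and 63.0 CPM in SA:ANH-KDM5Ci libraries, against 52.2, 66.0 and 59.3 CPM in SA:ANH-vehicle libraries. Its log2 fold change of -0.01 had a 95% interval from -0.20 to 0.18 (adjusted p = 0.973).

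Ier2 and Btg2 are early genes of many cell types. Ier2, a nuclear protein of growth factor responses (gene 15936, chromosome 8, 84661331 to 84662852), was at 6.43, 6.21 and 7.62 CPM in SA:ANH-KDM5Ci libraries, against 12.5, 5.21 and 6.65 CPM in SA:ANH-vehicle libraries. Btg2, an antiproliferative protein that recruits the deadenylase complex to messenger RNAs (gene 12227, chromosome 1, 134074865 to 134079155), was at 12.2, 14.2 and 11.1 CPM in SA:ANH-KDM5Ci libraries, against 27.8, 11.4 and 14.6 CPM in SA:ANH-vehicle libraries. Both were highest in SA:ANH-vehicle replicate 1 and overlapped otherwise. Their log2 fold changes were -0.27 and -0.54 (adjusted p = 0.871 and 0.702), and 0.20 and -0.06 without that library. Against the call of Apold1, the median log2 fold change of the 9 was -0.01, beside 0.00 over all tested genes.

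**Figure D2:**
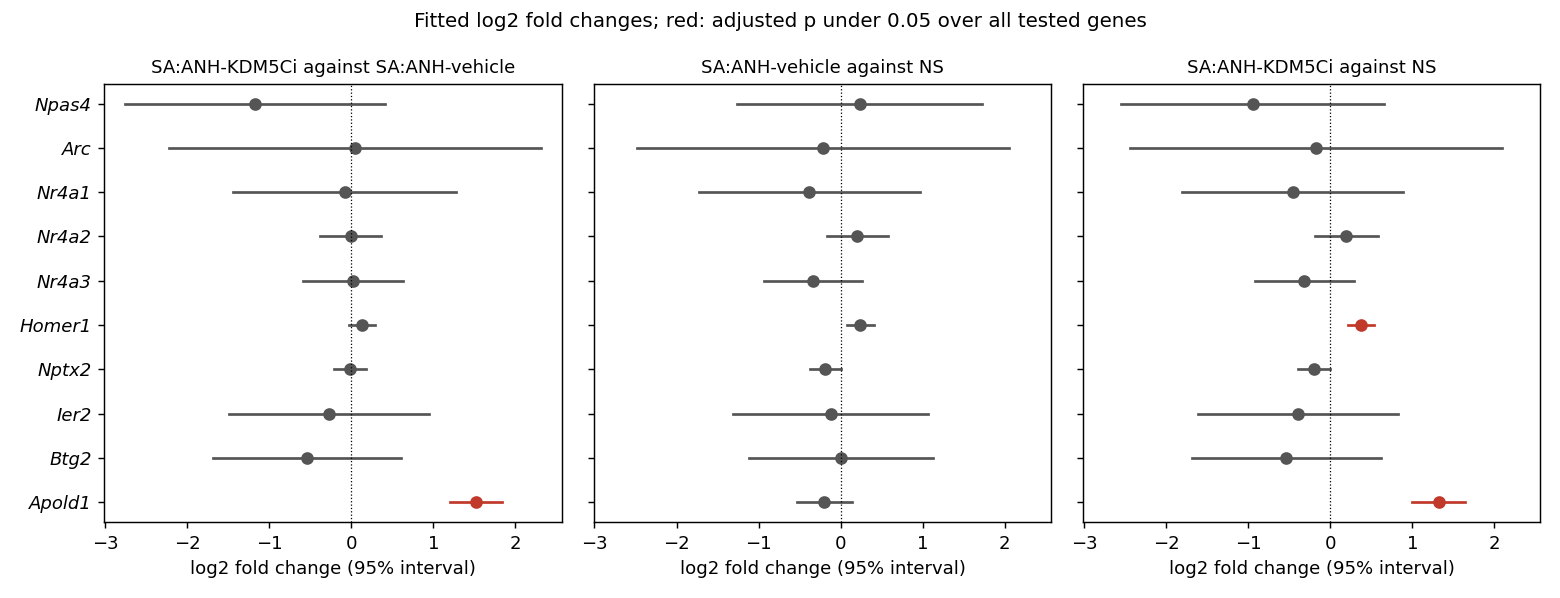
Fitted log2 fold changes (points) and 95% intervals (lines) of the 10 genes in the 3 comparisons, with red for an adjusted p under 0.05. Apold1 stands at 1.52 against SA:ANH-vehicle and 1.32 against NS, Homer1 at 0.37 against NS, and the intervals of Arc and Npas4 are the widest.

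Between SA:ANH-vehicle and NS, both stress and SA:ANH type differ, and the effects of stress and type cannot be told apart. None of the 10 members was called by edgeR, by DESeq2 or by limma-voom, and Homer1 was the only member at an unadjusted p under 0.05. Homer1 was at 216.8, 258.1 and 244.1 CPM in SA:ANH-vehicle libraries, against 185.3, 212.2 and 210.9 CPM in NS libraries. The groups did not overlap, as held for 15.1% of all tested genes, and the log2 fold change was 0.24 (SE 0.07, 95% interval from 0.08 to 0.40, adjusted p = 0.389). Nptx2 averaged 59.2 ± 6.91 CPM in SA:ANH-vehicle and 67.3 ± 4.83 CPM in NS libraries (SD, n = 3 each), for a difference of -0.19 on the log2 scale (adjusted p = 0.612). Apold1 was at 5.28 ± 0.788 CPM in SA:ANH-vehicle and 6.06 ± 1.41 CPM in NS libraries, with a log2 fold change of -0.20 (95% interval from -0.54 to 0.14, adjusted p = 0.807), and of 0.01 without NS replicate 1.

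The genes that were high in both replicate 1 libraries had intervals too wide for a statement on stress. In NS libraries Arc was at 337.5, 63.5 and 35.8 CPM, so that the highest library held 9.43 times the lowest. Npas4 was at 25.0, 8.33 and 8.26 CPM and Nr4a1 at 141.3, 47.0 and 39.9 CPM in the same libraries. In SA:ANH-vehicle against NS, Arc had a log2 fold change of -0.22 (95% interval from -2.48 to 2.05, adjusted p = 0.983), which was 1.34 without NS replicate 1 and 0.61 without both replicate 1 libraries. Nr4a1 turned from -0.38 with all libraries to 0.43 without NS replicate 1 and to 0.13 without both (adjusted p = 0.922, 0.766 and 0.919). Npas4 had a log2 fold change of 0.23 (adjusted p = 0.969), which was 0.98 without NS replicate 1. It was -0.51 when SA:ANH-vehicle replicate 1 was left out instead. Ier2 and Btg2 averaged 8.12 ± 3.86 and 17.9 ± 8.70 CPM in SA:ANH-vehicle libraries, against 8.88 ± 5.77 and 18.0 ± 9.78 CPM in NS libraries. Nr4a2 averaged 19.0 ± 4.11 CPM in SA:ANH-vehicle and 16.4 ± 3.40 CPM in NS libraries, and Nr4a3 6.81 ± 0.316 and 8.59 ± 3.52 CPM, with adjusted p = 0.827 and 0.810.

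SA:ANH-KDM5Ci against NS sets stressed, inhibitor-treated mice beside non-stressed ones, and it shares the SA:ANH-KDM5Ci libraries with the inhibitor comparison and the NS libraries with the stress comparison. Of the 10 members, 2 rose, Apold1 and Homer1, and none fell, beside 1.86% and 2.11% of all tested genes. Apold1 was at 13.7, 15.9 and 15.96 CPM in SA:ANH-KDM5Ci libraries, against 7.66, 5.55 and 4.99 CPM in NS libraries, with no overlap, as held for 23.5% of all tested genes in this comparison. Its log2 fold change was 1.32 (SE 0.15, 95% interval from 1.00 to 1.64, adjusted p = 0.000254). Homer1 was at 262.6 ± 18.7 CPM in SA:ANH-KDM5Ci and 202.8 ± 15.2 CPM in NS libraries (SD, n = 3 each), again with no overlap, a 1.30-fold rise. The log2 fold change was 0.37 (SE 0.07, 95% interval from 0.21 to 0.53, adjusted p = 0.0145), and the call was lost without SA:ANH-KDM5Ci replicate 3 (0.31, adjusted p = 0.056). Along the 3 groups Homer1 thus averaged 262.6, 239.7 and 202.8 CPM in SA:ANH-KDM5Ci, SA:ANH-vehicle and NS libraries, and neighbouring groups did not differ past the threshold.

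The other members did not pass in SA:ANH-KDM5Ci against NS. Nptx2 did not overlap either, at 52.9 to 63.0 CPM in SA:ANH-KDM5Ci and 63.3 to 72.6 CPM in NS libraries, with a log2 fold change of -0.20 (95% interval from -0.39 to -0.01, adjusted p = 0.253). Arc had a log2 fold change of -0.17 (95% interval from -2.44 to 2.09, adjusted p = 0.952). Without NS replicate 1 the remaining NS libraries, at 63.5 and 35.8 CPM, were both below the lowest SA:ANH-KDM5Ci library, at 113.3 CPM, and the log2 fold change was 1.38 (adjusted p = 0.340). Nr4a2 crossed the threshold in 1 of the 19 alternatives run: its log2 fold change was 0.20 with all libraries (adjusted p = 0.585) and 0.38 without both replicate 1 libraries (adjusted p = 0.0112), where NS is left with 2 libraries. Npas4 was at -0.94 (adjusted p = 0.516) with all libraries and at -0.19 without NS replicate 1 (adjusted p = 0.884). Nr4a1 was at -0.46 (adjusted p = 0.729), Nr4a3 at -0.31 (adjusted p = 0.584), Ier2 at -0.40 (adjusted p = 0.747) and Btg2 at -0.54 (adjusted p = 0.618), and these 4 changed sign without NS replicate 1.

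**Figure D3:**
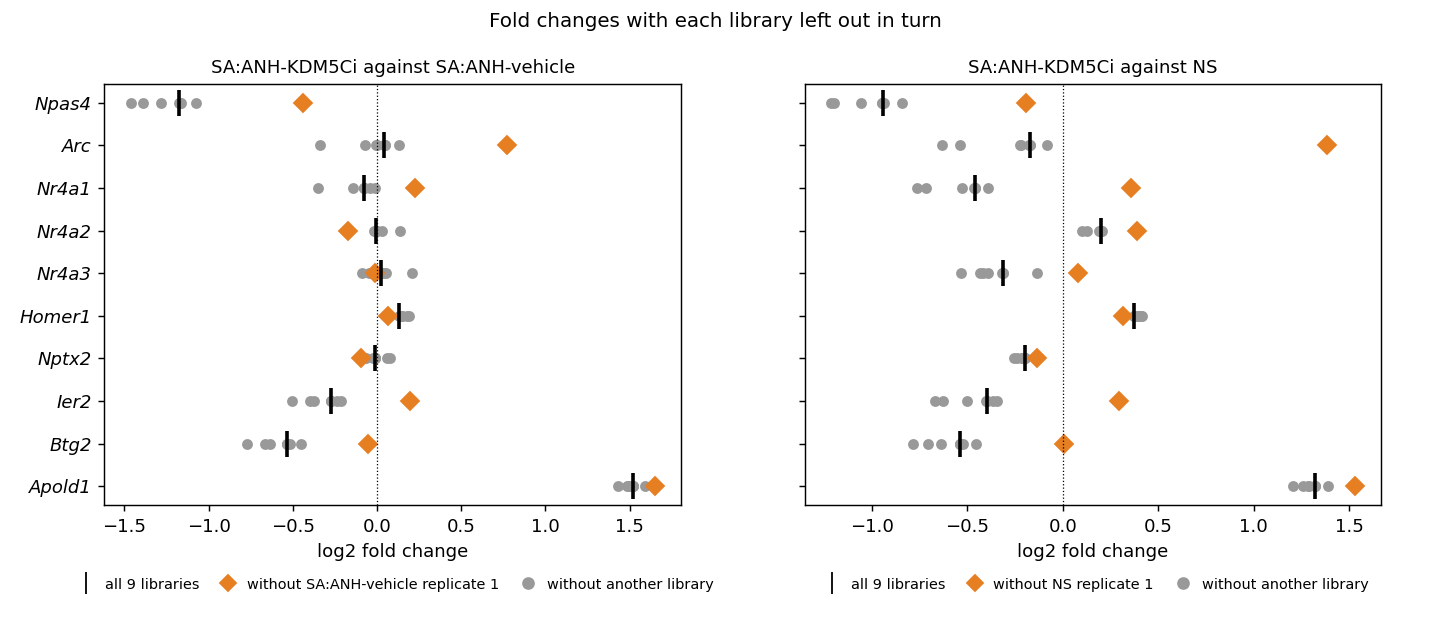
Log2 fold changes of the 10 genes with all libraries (bars) and with each library left out in turn (points, with a diamond for replicate 1 of the second-named group). Apold1 stays between 1.43 and 1.65 against SA:ANH-vehicle and between 1.20 and 1.53 against NS, while Arc spans -0.63 to 1.38 against NS.

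Apold1 and the other 9 genes separated the libraries in different ways. The difference between Apold1 and the mean of the other 9, on the log2 CPM scale, was -0.99, -0.87 and -0.70 in SA:ANH-KDM5Ci libraries, -2.64, -2.35 and -2.48 in SA:ANH-vehicle libraries and -2.69, -2.07 and -2.11 in NS libraries. The SA:ANH-KDM5Ci libraries did not overlap with the others. Group means were -0.85 ± 0.14, -2.49 ± 0.15 and -2.29 ± 0.35 in the same order (SD, n = 3 each). The mean of the 9 was 4.78, 4.90 and 4.88, so that the difference moved with Apold1, at 3.93, 2.41 and 2.59 log2 CPM. Since the genes were chosen with earlier results of these data known, no test is given for this score. Within the groups that did not receive the inhibitor, Apold1 was highest in the replicate 1 libraries too, at 6.14 CPM in SA:ANH-vehicle and 7.66 CPM in NS, and both were below every SA:ANH-KDM5Ci library.

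**Figure D4:**
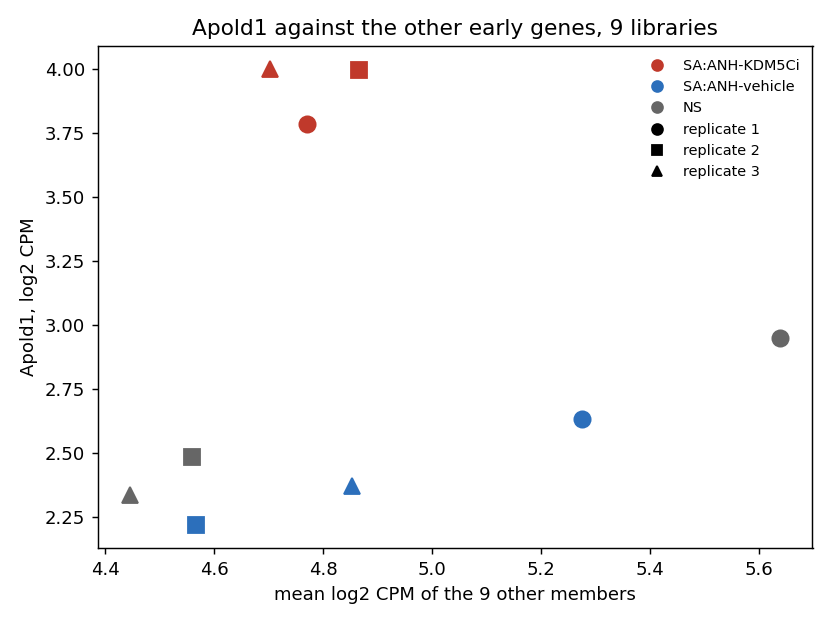
Apold1 against the mean of the other 9 genes in each library, both in log2 CPM, coloured by group and shaped by replicate. The SA:ANH-KDM5Ci libraries lie above 3.7 on the vertical axis at a horizontal position between 4.70 and 4.87, and the replicate 1 libraries of SA:ANH-vehicle and NS lie farthest to the right, at 5.27 and 5.64.

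Levels between genes are comparable only per length, here CPM per kilobase of merged exons in GENCODE M21. In SA:ANH-KDM5Ci libraries the order was Arc at 42.4 ± 4.65, Nptx2 at 23.1 ± 2.03, Homer1 at 21.9 ± 1.56 and Nr4a1 at 15.8 ± 1.47 CPM per kilobase (SD, n = 3). Nr4a2 at 4.65, Btg2 at 4.56, Ier2 at 4.44 and Apold1 at 4.26 followed, with Npas4 at 1.76 and Nr4a3 at 1.17 CPM per kilobase at the end. Nptx2 and Homer1 were within their SD of each other, as were Btg2, Ier2 and Apold1. In SA:ANH-vehicle and NS libraries Apold1 stood lower in this order, at 1.48 ± 0.221 and 1.70 ± 0.395 CPM per kilobase, below the mean of Npas4, at 3.91 ± 2.66 and 3.35 ± 2.33, but within its SD. The merged length of Homer1 is 11.976 kb, since many alternative ends are merged, which lowers its value on this scale.

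Early genes that are named vascular here were followed in a list of 15 without Apold1, chosen with earlier results of these data known. In bulk tissue their levels cannot be assigned to vessels, and Cdkn1a is also on the list of delayed activity-induced genes. By p, Sgk1, Maff and Nfkbia ranked 2, 5 and 7 of all tested genes in SA:ANH-KDM5Ci against SA:ANH-vehicle. In SA:ANH-KDM5Ci against SA:ANH-vehicle 4 rose and 1 fell, beside 0.891% and 1.62% of all tested genes, with a median log2 fold change of 0.46. Against NS 5 rose and 1 fell, beside 1.86% and 2.11% of all tested genes, with a median of 0.55. For a list so chosen, these counts are a description and not a test. Maff, a small Maf factor, was at 5.40 ± 0.713 CPM in SA:ANH-KDM5Ci, 1.01 ± 0.0971 CPM in SA:ANH-vehicle and 0.673 ± 0.173 CPM in NS libraries, and its log2 fold changes were 2.42 and 2.99 (adjusted p = 9.61e-06 and 1.46e-06). Nfkbia, the inhibitor of NF-kB, rose by 1.56 and 1.71, Sgk1, a kinase induced by glucocorticoids, by 1.44 and 1.46, and Cdkn1a, an inhibitor of the cell cycle, by 0.82 and 0.65 on the log2 scale. Klf6, a Kruppel-like factor of endothelium, was the member that fell, with log2 fold changes of -0.48 and -0.42 (adjusted p = 0.000769 and 0.00188). Zfp36, which destabilizes cytokine RNAs, was called against NS at 1.06 on the log2 scale (adjusted p = 0.0428) and was at 0.44 against SA:ANH-vehicle (adjusted p = 0.482), and the call against NS was lost without any of 5 libraries. Without NS or SA:ANH-vehicle replicate 1 these calls were kept. In SA:ANH-vehicle against NS, 0 of the 15 were called, with a median of 0.02.

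Endothelial markers were called in both directions. Of 18 markers, 1 rose and 3 fell in SA:ANH-KDM5Ci against SA:ANH-vehicle, beside 0.891% and 1.62% of all tested genes, with a median log2 fold change of -0.14. Against NS, 1 rose and 4 fell, of which Slco1a4 was lost without any of 6 libraries and Itm2a without any of 7, so that 2 falls were left without NS replicate 2 or 3, for example. Their summed level lay between 509.0 and 605.0 CPM in SA:ANH-KDM5Ci, 507.0 and 543.7 CPM in SA:ANH-vehicle, and 494.4 and 516.4 CPM in NS libraries. Blood markers summed to between 444.4 and 586.4 CPM in SA:ANH-KDM5Ci, 486.0 and 554.4 CPM in SA:ANH-vehicle, and 279.0 and 320.8 CPM in NS libraries. Of 5 blood markers 0 were called in SA:ANH-KDM5Ci against SA:ANH-vehicle. Against NS, 5 rose in SA:ANH-KDM5Ci, or 3 without NS replicate 3, and 2, the beta-globin genes Hbb-b1 and Hbb-bs, rose in SA:ANH-vehicle. In SA:ANH-KDM5Ci against SA:ANH-vehicle, Slc2a1, the glucose transporter of the vessel wall, rose by 0.88, while Cldn5, a tight junction protein, Kdr, a VEGF receptor, and Slco1a4, an anion transporter, fell by 0.70, 0.84 and 0.43 on the log2 scale. The summed endothelial level includes Slc2a1, at 149.0 ± 13.8 CPM in SA:ANH-KDM5Ci, 81.1 ± 3.22 CPM in SA:ANH-vehicle and 68.4 ± 4.06 CPM in NS libraries. Of the 18 endothelial fold changes, 4 were positive against SA:ANH-vehicle and 8 against NS. Pecam1 and Cdh5, which define endothelium, were at 18.8 to 25.4 and 13.5 to 16.5 CPM in SA:ANH-KDM5Ci, against 19.0 to 22.7 and 15.3 to 18.3 CPM in SA:ANH-vehicle libraries. Meningeal markers summed to between 87.1 and 95.95 CPM in SA:ANH-KDM5Ci, between 126.5 and 201.8 CPM in SA:ANH-vehicle and between 108.7 and 174.8 CPM in NS libraries. Of 11 meningeal markers, 4 were called lower in SA:ANH-KDM5Ci against SA:ANH-vehicle, beside 1.62% of all tested genes. Without SA:ANH-KDM5Ci replicate 3, Foxc2, Slc22a6 and Lum were lost and 1, Foxd1, was left. Against SA:ANH-vehicle, 0 of the 11 fold changes were positive (median log2 -0.77), and 11 did not overlap, beside 18.9% of all tested genes. Against NS, 0 were positive (median log2 -0.71) and 2 were called lower, beside 2.11% of all tested genes. Of these, Slc22a6 was lost without any of 5 libraries. Striatal markers summed to 1089, 545.3 and 767.5 CPM in SA:ANH-KDM5Ci, against 474.7 to 594.0 CPM in SA:ANH-vehicle and 445.2 to 649.1 CPM in NS libraries, with 0 of 11 called. All 11 striatal fold changes were positive in SA:ANH-KDM5Ci against SA:ANH-vehicle and against NS, with medians of 0.84 and 0.69 on the log2 scale. The part of these markers in the result for Apold1 was not tested.

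Oligodendrocyte markers were high in the libraries where Arc was high. All 7 had positive fold changes in each comparison and 0 were called, with medians of 0.45 in SA:ANH-KDM5Ci against SA:ANH-vehicle, 0.10 in SA:ANH-vehicle against NS and 0.57 in SA:ANH-KDM5Ci against NS. The 4 libraries with sums of at most 1946 CPM were also the 4 with the lowest Arc level, from 35.8 to 104.4 CPM, and the other 5 had Arc levels from 113.3 to 337.5 CPM. The same 4 libraries were also the lowest in Apold1, from 4.59 to 5.55 CPM. Among the other 5, Apold1 was at 6.14 CPM in SA:ANH-vehicle replicate 1 (sum 3045 CPM) and 7.66 CPM in NS replicate 1 (sum 3030 CPM). It was at 13.7, 15.9 and 15.96 CPM in the SA:ANH-KDM5Ci libraries, at sums of 3562, 2724 and 3240 CPM. The part of tissue make-up in the levels of Arc and Apold1 was not tested.

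**Figure D5:**
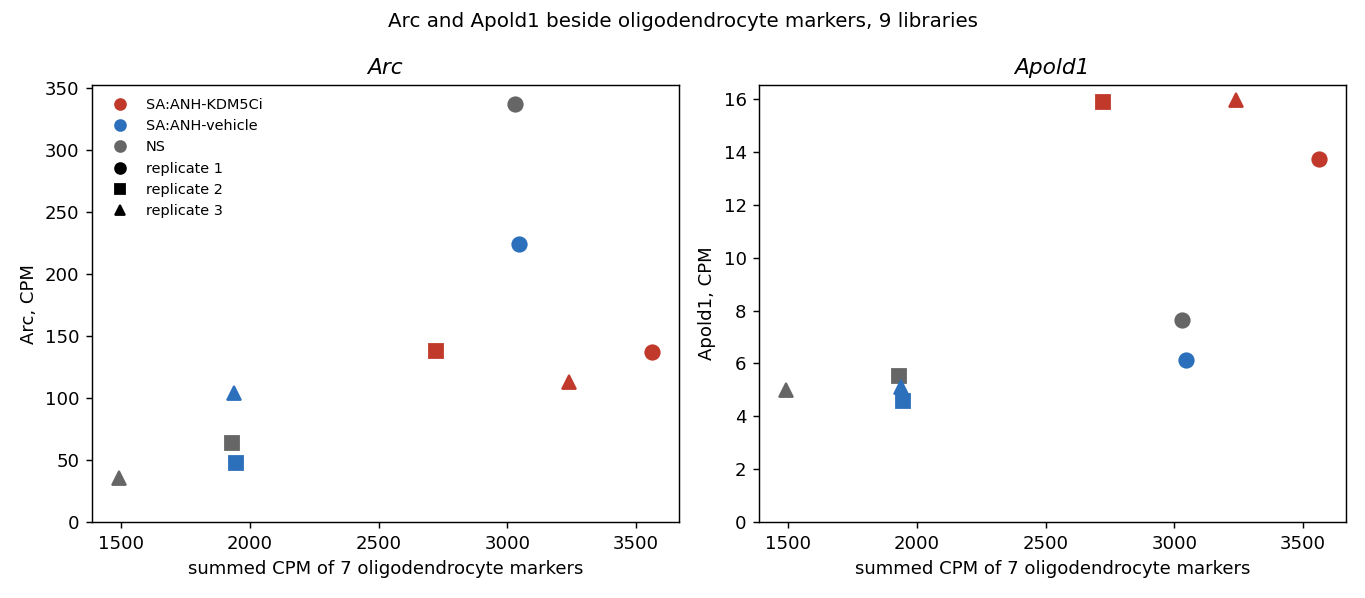
Arc (left) and Apold1 (right) in CPM against the summed CPM of 7 oligodendrocyte markers in each library, coloured by group and shaped by replicate. Libraries with sums of at most 1946 CPM have Arc levels up to 104.4 CPM, and none of them is of SA:ANH-KDM5Ci. SA:ANH-KDM5Ci libraries have sums from 2724 to 3562 CPM and Apold1 levels from 13.7 to 15.96 CPM. From the other groups, only replicate 1 of SA:ANH-vehicle and of NS, at 3045 and 3030 CPM, lies in that range of sums.

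Other activity-induced genes were counted in lists chosen with earlier results known. Of all tested genes, 0.891% rose and 1.62% fell in SA:ANH-KDM5Ci against SA:ANH-vehicle, and 1.86% rose and 2.11% fell against NS. Of 23 rapid genes without the members, 1 rose and 0 fell in SA:ANH-KDM5Ci against SA:ANH-vehicle, with a median log2 fold change of 0.06. Dusp5, a phosphatase that switches off ERK in the nucleus, was that gene, at 5.07 ± 0.293 CPM in SA:ANH-KDM5Ci and 2.40 ± 0.645 CPM in SA:ANH-vehicle libraries (log2 1.07, adjusted p = 0.0104). Against NS, Dusp5 rose by 1.02 (adjusted p = 0.0119), a call lost without NS replicate 2 or 3, and Jun, a subunit of the AP-1 factor, fell by 0.39 (adjusted p = 0.0297), a call lost without any of 4 libraries. Per1, a clock gene that also responds to hormones, had a log2 fold change of 0.53 against SA:ANH-vehicle (adjusted p = 0.0983). Its groups did not overlap, as held for 9 of the 23 rapid genes and 18.9% of all tested genes. Of 17 delayed genes, 2 rose and 1 fell against SA:ANH-vehicle: Cdkn1a, which is also on the vascular list, Plk2, a kinase that lowers synaptic strength, and Rgs2, which restrains G protein signals. Plk2 was at 253.6 ± 4.35 CPM in SA:ANH-KDM5Ci and 210.1 ± 5.80 CPM in SA:ANH-vehicle libraries (log2 0.27, adjusted p = 0.00995), and leaving out SA:ANH-vehicle replicate 2 ended the call (adjusted p = 0.0597). Rgs2 was at 40.2 ± 1.16 CPM in SA:ANH-KDM5Ci and 52.6 ± 3.19 CPM in SA:ANH-vehicle libraries, and its log2 fold change was -0.39 (adjusted p = 0.00789). Against NS, 2 delayed genes rose, Cdkn1a and Plk2, and in SA:ANH-vehicle against NS none of either list was called.

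Regulators upstream of the early genes showed no call in any comparison: of 24, among them Creb1, Srf, the Mef2 genes and the CREB co-activators, 0 passed, and their medians lay between -0.03 and -0.01 on the log2 scale. Those of lowest p against SA:ANH-vehicle were Mrtfa, an SRF co-activator, at 0.19, and Creb1 at -0.15 (adjusted p = 0.150 and 0.253). Of 21 binding partners of the encoded proteins, such as Arnt2 for Npas4, the Rxr receptors for the Nr4a factors and Shank3 for Homer1, 0 were called in any comparison. Of 13 paralogs, 1 fell against SA:ANH-vehicle, beside 1.62% of all tested genes. This was Tob1, a relative of Btg2, at 28.7 ± 0.850 CPM in SA:ANH-KDM5Ci and 35.9 ± 2.17 CPM in SA:ANH-vehicle libraries (log2 -0.33, adjusted p = 0.0358), a call lost without any of 6 libraries. Nptx1 and Nptxr, the relatives with which Nptx2 assembles, did not pass in any comparison. In SA:ANH-KDM5Ci against SA:ANH-vehicle Nptx1 was at 0.13 (adjusted p = 0.202), and in SA:ANH-KDM5Ci against NS Nptxr was at -0.21 (adjusted p = 0.200) on the log2 scale.

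The genes whose levels were most like those of 3 members were taken by Pearson correlation of log2 CPM over the 9 libraries, among 13510 genes of at least 1 CPM, as a description in which group differences and single libraries are shared by all points. For Apold1 they were Ppp2r1b, Rhob, Sap30, Ppp1r10 and Itpk1, at 0.98 to 0.96. For Npas4 the nearest was Btg2 at 0.97, followed by Ctr9, Spty2d1, Mrrf and Elovl7 at 0.94 to 0.92. For Arc they were Gjb1, Dusp6, Phldb1, Fos and Dusp1, at 0.95 to 0.93, of which Gjb1 is a gap junction gene of oligodendrocytes and Dusp6 and Dusp1 are early phosphatases. Among the members, Arc and Nr4a1 were at 0.92 and Nr4a1 and Ier2 at 0.91, while Apold1 was at -0.33 with Npas4 and 0.43 with Arc. The Spearman values of those 4 pairs were 0.88, 0.87, -0.33 and 0.67.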

How the data were processed

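RNA was extracted from frozen medial prefrontal cortex, and strand-specific libraries were made from total RNA, per the labels' protocols. The deposited values are expected counts per NCBI gene, which need not be whole: 15.7% of values above 0 were whole within 1e-06. Per the submitters' processing notes, Trimmomatic 0.32, TopHat2 2.0.13 and Bowtie2 2.2.3 were used, with mm10. The counting tool and its strand setting are not given in the sources used here.

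Expected counts were rounded. edgeR's filterByExpr left 15144 genes, scaled by TMM (factors 0.987 to 1.01). edgeR 4.0.16 (R 4.3.3) tested 1 mean per group over all 9 libraries with its robust quasi-likelihood test, with Benjamini-Hochberg adjustment over all genes at 0.05. A standard error is the log2 fold change divided by the root of F, and intervals use the moderated degrees of freedom. DESeq2 1.42.0, limma-voom (limma 3.58.1), other scalings and filters, a replicate block and left-out libraries were alternatives. The fit was tested on simulated counts. The members, lists and rules were chosen with earlier results of these data known. Named beside the members are list genes of lowest p, up to 4 per list and comparison, and Fos. Pecam1, Cdh5, and regulators and partners given as examples of their lists were named outside this rule, after their values were seen. Correlations and scores use log2 CPM with a prior count of 2. Symbols and promoters come from RefSeq on GRCm38.p6 and exon lengths from GENCODE M21.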

Additional observations from a re-analysis of the deposited data

How the results depend on the processing

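Apold1 was called in SA:ANH-KDM5Ci against SA:ANH-vehicle and against NS in all 19 alternatives run, with log2 fold changes from 1.43 to 1.65 and from 1.20 to 1.53. Homer1 was called against NS in 18 of 19, and the number of members called there was 2, or 1 without SA:ANH-KDM5Ci replicate 3 and 3 without both replicate 1 libraries, so that it ran from 1 to 3. Over the 10 members and 3 comparisons, 513 of 570 log2 fold changes under an alternative kept direction and side of the threshold and 55 changed sign, none of them called.

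Genes called with 1 library left out ran from 203 to 429 in SA:ANH-KDM5Ci against SA:ANH-vehicle, from 2 to 17 in SA:ANH-vehicle against NS and from 269 to 747 in SA:ANH-KDM5Ci against NS. The 203 came without SA:ANH-vehicle replicate 2 and the 269 without NS replicate 3. In SA:ANH-vehicle against NS, 11 were called with library size alone, 81 with DESeq2, 11 with all genes above 0 and 17 with only the 2 groups compared. Without both replicate 1 libraries, a choice made after seeing the data, 1121 were called in SA:ANH-KDM5Ci against NS, of which 545 were among the 601.

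With 1 library left out, log2 fold changes in SA:ANH-KDM5Ci against SA:ANH-vehicle ran from -0.34 to 0.77 for Arc, -0.35 to 0.22 for Nr4a1, -0.17 to 0.14 for Nr4a2, -0.0897 to 0.21 for Nr4a3, -0.0921 to 0.0765 for Nptx2 and -0.51 to 0.20 for Ier2. In SA:ANH-vehicle against NS they ran from -0.51 to 0.98 for Npas4, -0.95 to 1.34 for Arc, -0.68 to 0.43 for Nr4a1, -0.56 to 0.0506 for Nr4a3, -0.60 to 0.57 for Ier2, -0.48 to 0.54 for Btg2 and -0.33 to 0.0105 for Apold1. In SA:ANH-KDM5Ci against NS they ran from -0.63 to 1.38 for Arc, -0.76 to 0.36 for Nr4a1, -0.53 to 0.0785 for Nr4a3, -0.67 to 0.29 for Ier2 and -0.78 to 0.0086 for Btg2. The difference between Apold1 and the mean of the other 9 ran from 1.56 to 1.71, from -0.40 to -0.09 and from 1.24 to 1.55 in the 3 comparisons.

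Without both replicate 1 libraries, Nr4a1, Nr4a3 and Ier2 were at 0.22, -0.0154 and 0.20 in SA:ANH-KDM5Ci against SA:ANH-vehicle. In SA:ANH-vehicle against NS, Arc, Nr4a1, Nr4a3, Ier2 and Btg2 were then at 0.61, 0.13, 0.0876, 0.0949 and 0.0617. In SA:ANH-KDM5Ci against NS, Arc, Nr4a1, Nr4a3, Ier2 and Btg2 were at 1.38, 0.35, 0.0722, 0.29 and 0.0026, and Nr4a2 at 0.38. limma-voom gave 0.0279 for Nr4a2 and -0.0137 for Nr4a3 in the first comparison, 0.17 for Arc and 0.0317 for Btg2 in the second and 0.48 for Arc in the third. Library size alone gave 0.0097 for Btg2 in the second. The cause of these changes was not tested.

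Between SA:ANH-vehicle and SA:ANH-KDM5Ci libraries of the same number, deviations from group means correlated at 0.24, 0.08 and 0.18. Between libraries of different numbers in these groups they correlated at -0.25 to 0.09. Each SA:ANH-vehicle library correlated best with the SA:ANH-KDM5Ci library of its own number. Between NS and the SA:ANH groups the range was -0.14 to 0.10 for the same number and -0.19 to 0.21 for different numbers. Whether the numbers mark a pairing was not tested. With the replicate number as a block, 363, 2 and 708 genes were called in the 3 comparisons in place of 380, 2 and 601, and Nr4a1 turned to 0.0273 in the first, Arc and Btg2 to 0.0605 and 0.0129 in the second and Arc to 0.45 in the third. The shallowest library held 29845097 counts, and with 3 libraries per group the intervals of the most variable members are wide. How much of the spread is counting error was not tested.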

Other observations

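The spread between libraries of a group is given here for all 10 genes. The coefficient of variation of Arc was 10.95% in SA:ANH-KDM5Ci, 71.8% in SA:ANH-vehicle and 115% in NS libraries, and that of Npas4 was 14.3%, 68.1% and 69.4%. Nr4a1 gave 9.26%, 39.7% and 74.4%, Ier2 11.2%, 47.5% and 65.0%, and Btg2 12.7%, 48.5% and 54.4%. Over all tested genes the median was 6.88% in SA:ANH-KDM5Ci, 6.03% in SA:ANH-vehicle and 6.13% in NS libraries. Apold1 had 8.42%, 14.9% and 23.3%, Homer1 7.12%, 8.77% and 7.47%, and Nptx2 8.79%, 11.7% and 7.18%. Nr4a2 had 1.30%, 21.6% and 20.7%, and Nr4a3, which was lowest in SA:ANH-vehicle, 21.9%, 4.65% and 41.0%. With 3 libraries per group, whether these spreads differ between the groups was not tested.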
